A study of Rattus norvegicus with 6 samples.

Results

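The genes described here are 9 genes that make or trim the pool of deoxynucleotides (dNTPs), the building blocks of DNA, and that supply its thymidylate. They are Rrm1, Rrm2, Rrm2b, Tyms, Tk1, Dck, Dut, Samhd1 and Dctd. They were chosen by gene symbol, each matched 1 row of the 18930 in the deposited count table, and all 9 passed the filter on low counts. NRK-52E is an established epithelial line from rat kidney, labelled wild type and used as a model of the proximal tubule, and all samples came from this 1 line. The RNA came from 3 vehicle-treated samples (Control) and from 3 samples kept for 24 h in 10 mM streptozotocin (STZ), a glucosamine-linked nitrosourea that alkylates DNA. The study asked which signaling pathway answers the toxicity of STZ in these cells, and the comparison here asks how the genes of dNTP supply answered it.

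Ribonucleotide reductase turns ribonucleotides into deoxyribonucleotides and sets the pace of dNTP synthesis. Its large subunit is encoded by Rrm1, and its small subunit is either Rrm2, which cycling cells make for S phase, or Rrm2b (p53R2), a p53-responsive form that also serves cells outside S phase. Thymidylate is made from dUMP by thymidylate synthase (Tyms), whose dUMP comes from dCMP deaminase (Dctd) and dUTPase (Dut). The kinases Tk1 and Dck salvage deoxynucleosides, and Samhd1 breaks dNTPs down.

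Total counts were 10430924 to 12737131 in Control and 13921413, 11658253 and 15191349 in STZ replicates 1, 2 and 3. Levels are given in CPM, read counts brought to a common library total, after TMM scaling in edgeR. They describe the change of a gene between samples, because CPM is not per length and levels of different genes cannot be set against each other. The labelled cell type was only partly borne out by its markers. The keratin gene Krt8 had 1149 CPM in Control and 1604 in STZ, and the junction gene Tjp1 had 612 and 681. Cdh1 had 2.58 and 1.64 CPM, and Krt18, Pax8 and Cldn4 had at most 4 reads per sample. The mesenchymal gene Vim had 2001 and 1842 CPM. Only uniquely mapped reads were counted, and whether this lowered the counts of any marker was not tested. Of 6 markers of the mature proximal tubule in the table, 5 (Lrp2, Slc2a2, Slc5a2, Cubn and Slc34a1) never exceeded 10 reads, and Aqp1 fell from 13.1 to 5.43 CPM. The epithelial markers summed to between 1706 and 1793 CPM in Control and between 2286 and 2291 in STZ. Nearly all of this sum came from Krt8 and Tjp1, and the part of these markers in the results was not tested. Of the other 5 mesenchymal markers, Pdgfrb and Col1a1 had 19.6 and 30.3 CPM in Control and 15.6 and 25.4 in STZ, and Pdgfra, Thy1 and Col1a2 had at most 4 reads in any sample. The 3 immune and 3 endothelial markers in the table had at most 29 reads in any sample.

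The promoters of the 4 members that changed most are shown because their genes moved in opposite directions, Tyms and Dck higher and Tk1 and Dctd lower in STZ. They are the 250 bases before the annotated start, from RefSeq with the build GRCr8, written 5′ to 3′ on the gene's strand. RefSeq promoters were matched for 7 of the 9 members, all but Rrm2 and Rrm2b. The authors counted reads on another build (Rnor6), so these positions belong to GRCr8 only. Capitals mark an E2F-type motif (TTTNGCGC) and the GC box (GGGCGG), each on either strand.
Tyms, chr9:120776084-120776333, minus strand: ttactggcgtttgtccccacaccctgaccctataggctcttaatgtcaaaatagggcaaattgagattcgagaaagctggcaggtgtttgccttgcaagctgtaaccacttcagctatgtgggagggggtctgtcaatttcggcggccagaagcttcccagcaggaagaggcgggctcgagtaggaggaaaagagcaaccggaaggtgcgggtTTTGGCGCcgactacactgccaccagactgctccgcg
Dck, chr14:19610327-19610576, minus strand: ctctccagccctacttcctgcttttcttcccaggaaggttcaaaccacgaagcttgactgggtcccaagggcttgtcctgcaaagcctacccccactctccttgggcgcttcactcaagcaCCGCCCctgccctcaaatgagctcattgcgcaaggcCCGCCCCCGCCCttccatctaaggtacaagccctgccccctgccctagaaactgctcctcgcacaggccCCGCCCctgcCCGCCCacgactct
Tk1, chr10:103544778-103545027, minus strand: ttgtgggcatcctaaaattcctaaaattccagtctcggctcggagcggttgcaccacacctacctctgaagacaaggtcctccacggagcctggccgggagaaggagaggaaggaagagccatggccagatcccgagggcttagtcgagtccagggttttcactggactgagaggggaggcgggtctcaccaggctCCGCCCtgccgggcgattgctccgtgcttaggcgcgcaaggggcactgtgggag
Dctd, chr16:50831160-50831409, minus strand: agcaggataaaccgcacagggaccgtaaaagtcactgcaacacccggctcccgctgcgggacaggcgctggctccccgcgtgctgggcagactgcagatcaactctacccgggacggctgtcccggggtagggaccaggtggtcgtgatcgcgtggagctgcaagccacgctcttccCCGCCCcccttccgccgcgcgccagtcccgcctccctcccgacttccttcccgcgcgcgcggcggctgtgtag
The capitals in Tyms are the E2F-type match, 37 to 30 bases before the start, and those in the other promoters are GC boxes. Among the 7 members only Tyms held TTTNGCGC, a motif found in 1.04% of 33469 rat promoters of the same length. Dck held 5 GC boxes, 6 of the 7 members (all but Tyms) held at least 1, and 30.5% of all promoters held at least 1. Rrm1 and Dctd held GCGGGAA, another E2F-type motif (3.36% of all promoters). The Dctd match lay 26 to 20 bases before the start and is left in lower case above. Rrm1 held CCAAT (34%), and Dck and a second annotated start of Dut held TTTGAA, the cell cycle homology region (16.2%). The motifs were searched on both strands and matches of different motifs did not overlap. The motifs were chosen after the sequences had been seen, so these shares cannot show that a match is unusual. These are matches of letters and not shown binding sites.

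Of the 9 genes, 3 were higher in STZ than in Control and 5 were lower at a Benjamini-Hochberg adjusted p under 0.05 in the quasi-likelihood (QL) test of edgeR, fitted over 11870 genes. Tyms, Dck and Rrm2b rose, and Rrm1, Dut, Samhd1, Tk1 and Dctd fell. Rrm2, the S-phase small subunit, did not pass the test. At this threshold 25.9% of all genes tested were higher and 25.1% lower, 50.9% together, so a called gene was common in this comparison. The members' log2 fold changes ran from -0.81 to 0.52 with a median of -0.18, against a median of -0.01 over all genes tested. The paper's second threshold is an absolute log2 fold change over 1. Together with an adjusted p under 0.05 it was passed by 0 members and by 3.37% of all genes (2.26% higher and 1.11% lower). It was passed by 0 members also at an unadjusted p under 0.05, by DESeq2 and by limma-voom. STZ and Control samples did not overlap in 8 of the 9 members, 3 higher and 5 lower, as in 56.3% of all genes tested (28.6% higher and 27.7% lower). These are bulk samples, in which fewer cells in S phase and less RNA per cell cannot be told apart. The labels do not say whether the 3 samples of a group were separate cultures, so the spread is that between these samples and may be technical.

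**Figure D1:**
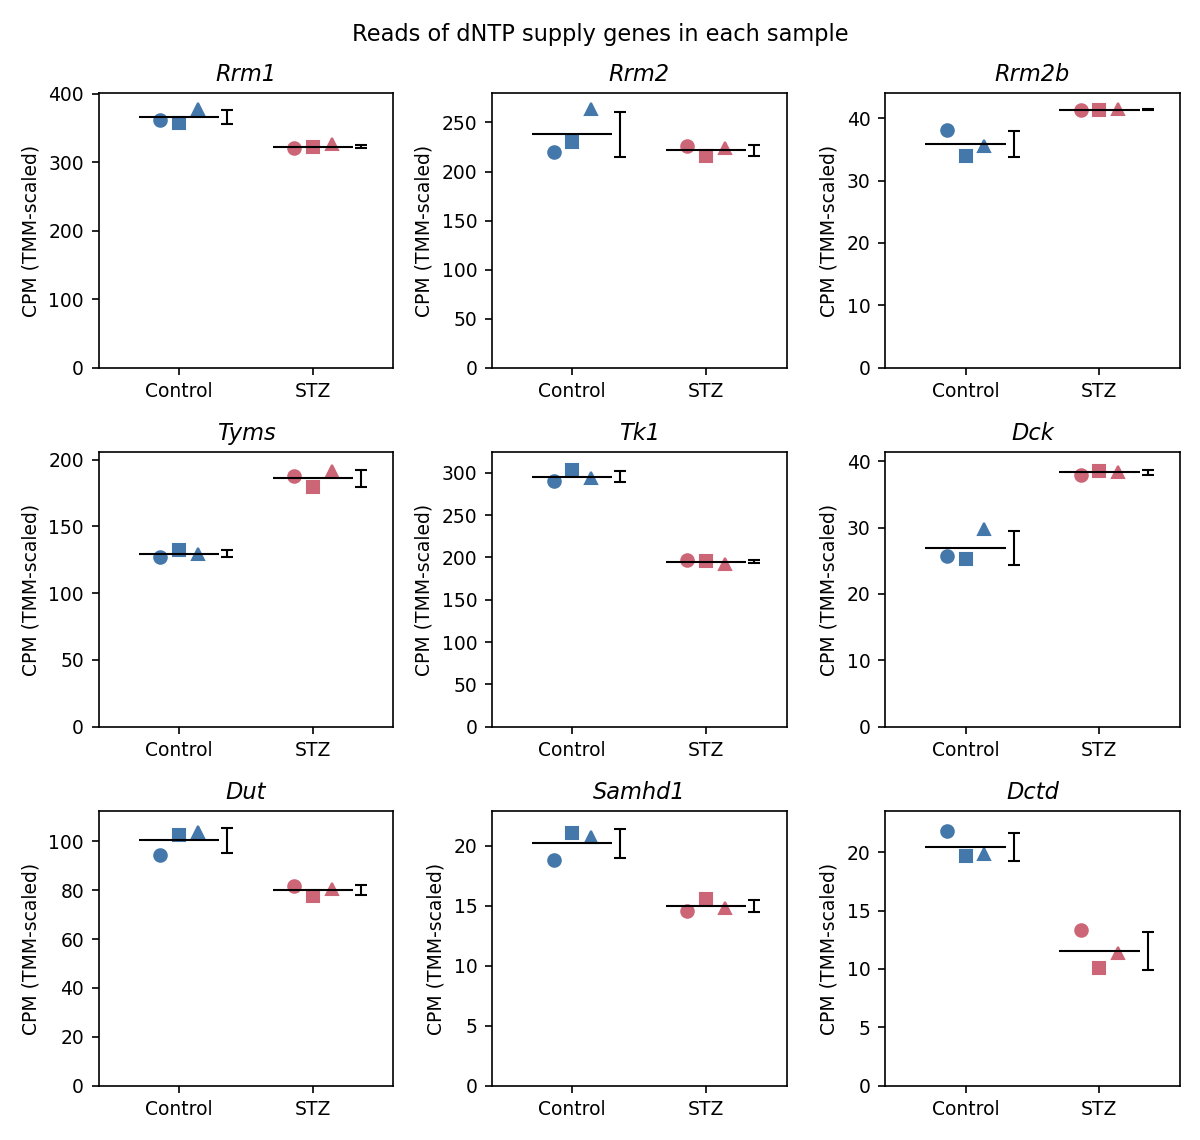
Each panel plots 1 gene, with the TMM-scaled CPM of every sample on a linear axis from 0. Blue points are Control and red points STZ, circles, squares and triangles are replicates 1, 2 and 3, the line is the group mean and the bar beside it is ± SD (n = 3). Rrm2 is the panel in which the groups overlap, with STZ between 216 and 226 CPM and Control between 220 and 264.

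The small subunit Rrm2b, which p53 is known to induce, was modestly higher after STZ. Control samples had 38.1, 33.9 and 35.6 CPM and STZ samples 41.4, 41.4 and 41.5 CPM, in replicate order. All STZ samples lay above all Control samples. Reads behind these values numbered 373 to 622 per sample. With such read numbers and 3 samples per group, the closeness of the STZ values is not read as a smaller spread. The mean was 35.9 ± 2.10 CPM in Control and 41.4 ± 0.0833 in STZ (SD, n = 3 each), a 1.16-fold rise. On the log2 scale the change was 0.21 (standard error, SE, 0.065, edgeR QL adjusted p = 0.0065). Without Control replicate 2 its adjusted p in edgeR was 0.049, and over all 15 alternatives it ran from 0.0035 to 0.049.

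Rrm2, the small subunit of cycling cells, had 220, 230 and 264 CPM in Control and 226, 216 and 224 CPM in STZ. Control replicate 3 was the highest of the 6 samples, and the other Control samples lay within or near the STZ range. The log2 fold change was -0.10 (SE 0.046), with an adjusted p of 0.056 in edgeR's QL test, just over the threshold. It passed under 7 of 15 alternatives, among them without Control replicate 1 (adjusted p = 0.0036) and without Control replicate 2 (adjusted p = 0.046), and without Control replicate 3 its log2 fold change was -0.02 (adjusted p = 0.70, all by edgeR). In the GRCr8 annotation the span of Rrm2 overlaps that of Cys1, which had 14 to 23 reads per sample against 2332 to 3383 for Rrm2.

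Rrm1, the large subunit that pairs with both small ones, fell. Its levels were 362, 358 and 378 CPM in Control and 321, 322 and 326 CPM in STZ, and the groups did not overlap. Its log2 fold change was -0.18 (SE 0.037, edgeR QL adjusted p = 6.8e-05), a level 0.882 times that of Control. The reductase subunits thus moved by 0.21 or less on the log2 scale, in both directions.

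The ratio of Rrm2b to Rrm2 was formed within each library, where it does not depend on scaling. Rrm2b reads were 17.3%, 14.7% and 13.5% of Rrm2 reads in Control and 18.3%, 19.2% and 18.6% in STZ. Each STZ sample was above each Control sample, the nearest being Control replicate 1. These are shares of reads and not per length, so only their change is read. On the log2 scale the ratio was -2.73 ± 0.18 in Control and -2.42 ± 0.034 in STZ (SD, n = 3 each), a difference of 0.31 or 1.24-fold. An exact two-sided permutation test over the 6 samples gave p = 0.1, the smallest it can give with 3 against 3. The difference was 0.41 without Control replicate 1 and 0.23 without Control replicate 3.

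Tyms, which methylates dUMP to dTMP, had the largest rise of the 9 genes. Control samples had 127, 132 and 129 CPM and STZ samples 188, 179 and 191 CPM. The groups lay well apart, with the lowest STZ sample 47 CPM above the highest Control sample. Its log2 fold change was 0.52 (SE 0.042, edgeR QL adjusted p = 6.4e-14), a 1.44-fold rise that lay above 92.4% of the genes tested. Its promoter, printed above, held the E2F-type TTTNGCGC near its start. The promoter of Dctd, the member that fell most, also held an E2F-type motif, GCGGGAA, near its start. Any part of these motifs in the changes was not tested.

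Both suppliers of dUMP moved the other way. Dctd, which deaminates dCMP to dUMP, had 21.8, 19.6 and 19.9 CPM in Control and 13.3, 10.1 and 11.3 CPM in STZ. Every STZ sample was below every Control sample, on 116 to 255 reads per sample. Its fall was the largest of the 9 genes, with a log2 fold change of -0.81 (SE 0.10, edgeR QL adjusted p = 8.1e-09), lower than in all but 2.06% of the genes tested. Dut, the dUTPase that yields dUMP and keeps uracil out of DNA, had 94.5, 103 and 104 CPM in Control and 81.8, 77.7 and 80.5 CPM in STZ. Its groups did not overlap either, and the log2 fold change was -0.33 (SE 0.049, edgeR QL adjusted p = 3.5e-07).

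**Figure D2:**
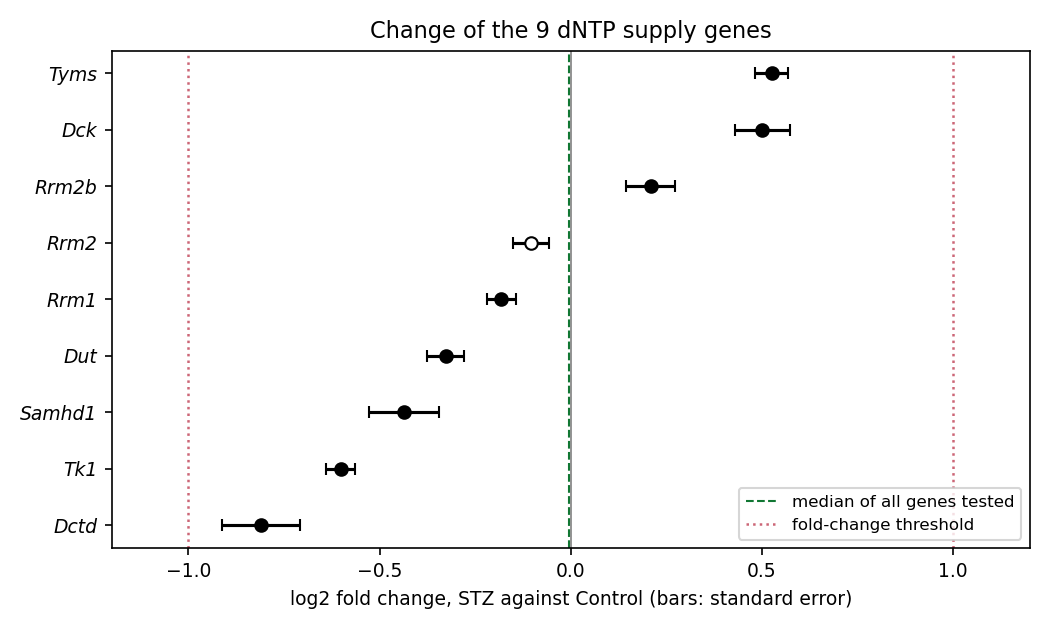
Log2 fold changes of the 9 genes (horizontal axis, STZ against Control) are drawn with standard errors as bars, filled where the adjusted p was under 0.05 and open where it was not. The dashed line is the median of all genes tested and the dotted lines are the fold-change threshold at -1 and 1, and the points run from Dctd at -0.81 to Tyms at 0.52, all inside the dotted lines.

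The salvage kinases were opposed. Tk1, the S-phase thymidine kinase, had 290, 303 and 294 CPM in Control and 196, 195 and 193 CPM in STZ, and the groups were far apart. Its log2 fold change was -0.60 (SE 0.039, edgeR QL adjusted p = 4.2e-17), the smallest p of the 9 genes. Dck, the deoxycytidine kinase, which also phosphorylates deoxyadenosine and deoxyguanosine, had 25.7, 25.3 and 29.9 CPM in Control and 37.9, 38.6 and 38.4 CPM in STZ. All STZ samples were above all Control samples. The log2 fold change of Dck was 0.50 (SE 0.072, edgeR QL adjusted p = 1.5e-07), a 1.41-fold rise.

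The ratio of Tyms, the synthesis route to dTMP, to Tk1, the salvage route, was formed after the values had been seen and is given with no test. Tyms reads were 43.7%, 43.6% and 44.0% of Tk1 reads in Control and 95.7%, 91.7% and 99.2% in STZ. The Control samples were nearly alike, and every STZ sample held more than any of them. The mean ratio was 2.18-fold higher in STZ, a log2 difference of 1.12, and between 1.10 and 1.15 with 1 sample left out.

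**Figure D3:**
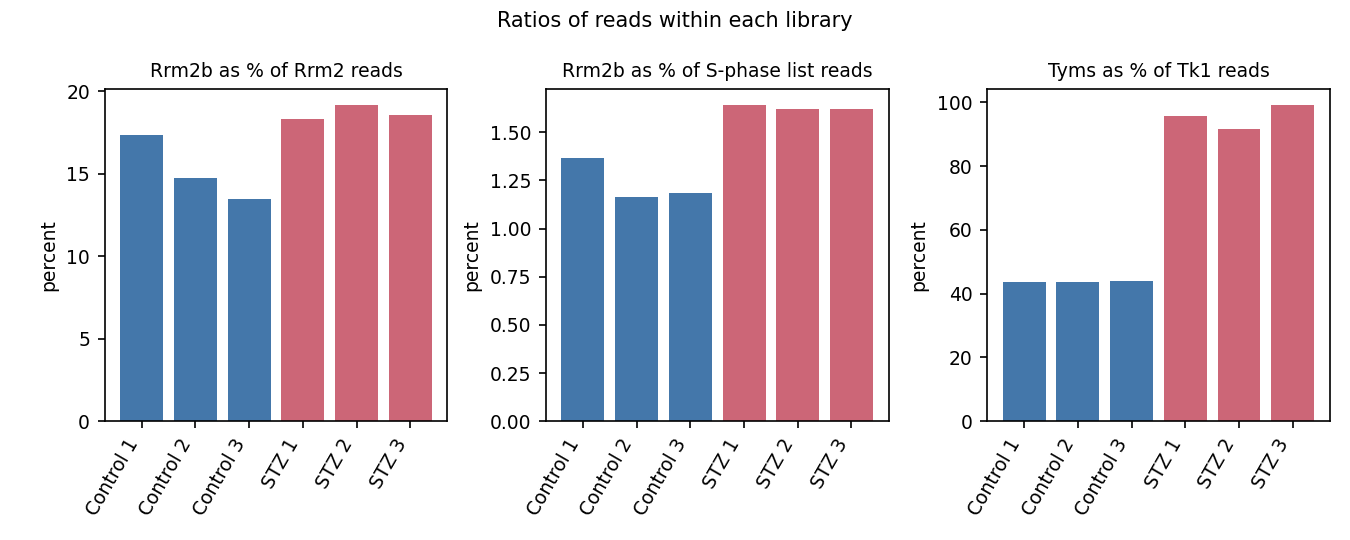
Bars give, for each of the 6 libraries and from 0, the reads of Rrm2b as a percent of Rrm2 reads (left), of Rrm2b as a percent of the summed reads of 25 S-phase genes (middle), and of Tyms as a percent of Tk1 reads (right), with Control in blue and STZ in red. All STZ bars stand above all Control bars in each panel. The nearest bars of the groups stand at 17.3% and 18.3% in the left panel, 1.37% and 1.62% in the middle and 44.0% and 91.7% on the right.

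Samhd1, the triphosphohydrolase that removes dNTPs, fell. It had 18.9, 21.1 and 20.7 CPM in Control and 14.6, 15.6 and 14.8 CPM in STZ, with no overlap. Its log2 fold change was -0.44 (SE 0.091, edgeR QL adjusted p = 9.7e-05). The 5 genes that fell therefore held Samhd1, which lowers the pool, beside Rrm1, Dut, Dctd and Tk1, which serve its supply.

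Rrm2b was set beside p53-responsive genes and S-phase genes. Of 20 p53-responsive genes tested, 16 were higher and 1 lower at an adjusted p under 0.05, against 25.9% and 25.1% of all genes tested. Their median log2 fold change was 1.17. This list was written with earlier results of these samples known and is no independent evidence of a direction. Cdkn1a, which encodes the cell-cycle inhibitor p21, rose from 232 to 1298 CPM, and Mdm2, the ubiquitin ligase that restrains p53, rose from 118 to 458 CPM. Ddb2, a damage sensor of nucleotide excision repair, fell from 9.74 to 6.70 CPM. The log2 fold change of Rrm2b was smaller than that of 17 of these 20 genes. Both call thresholds were passed by 11 of the 20 genes and not by Rrm2b.

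Of 25 S-phase genes tested, 2 were higher and 11 lower, against 25.9% and 25.1% of all genes tested. Their median log2 fold change was -0.10. Without Control replicate 3 the median was -0.054, and without STZ replicate 2 the higher genes numbered 4. Pcna, the sliding clamp of DNA polymerases, fell from 278 to 167 CPM (log2 fold change -0.73), and Mcm6, a subunit of the replicative helicase, fell from 255 to 181 CPM (-0.50). Rpa2, which coats single-stranded DNA, and Cdt1, a licensing factor, rose with log2 fold changes of 0.19 and 0.17. Rrm2b lay above all 25 of these genes as reported, by a small margin over Rpa2, but not in 4 of 15 alternatives. At least Rpa2 lay above it without Control replicate 2 or 3, without STZ replicate 1 and after thinning to the smallest total, and the difference from each gene was not tested. The S-phase genes summed to 2789, 2920 and 2999 CPM in Control and 2518, 2553 and 2562 CPM in STZ. Rrm2b reads were 1.37%, 1.16% and 1.19% of that sum in Control and 1.64%, 1.62% and 1.62% in STZ, a 1.32-fold higher ratio with no overlap between the groups. Genes with more reads weigh more in the sum, among them Pcna and Mcm6, which fell, and Prim1, which did not pass the test. This ratio was not among the planned results, was not tested and was not refitted under the alternatives. Tyms and Dck also lay above every S-phase gene, whereas Dctd lay below every S-phase gene and Tk1 below all but Pcna.

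**Figure D4:**
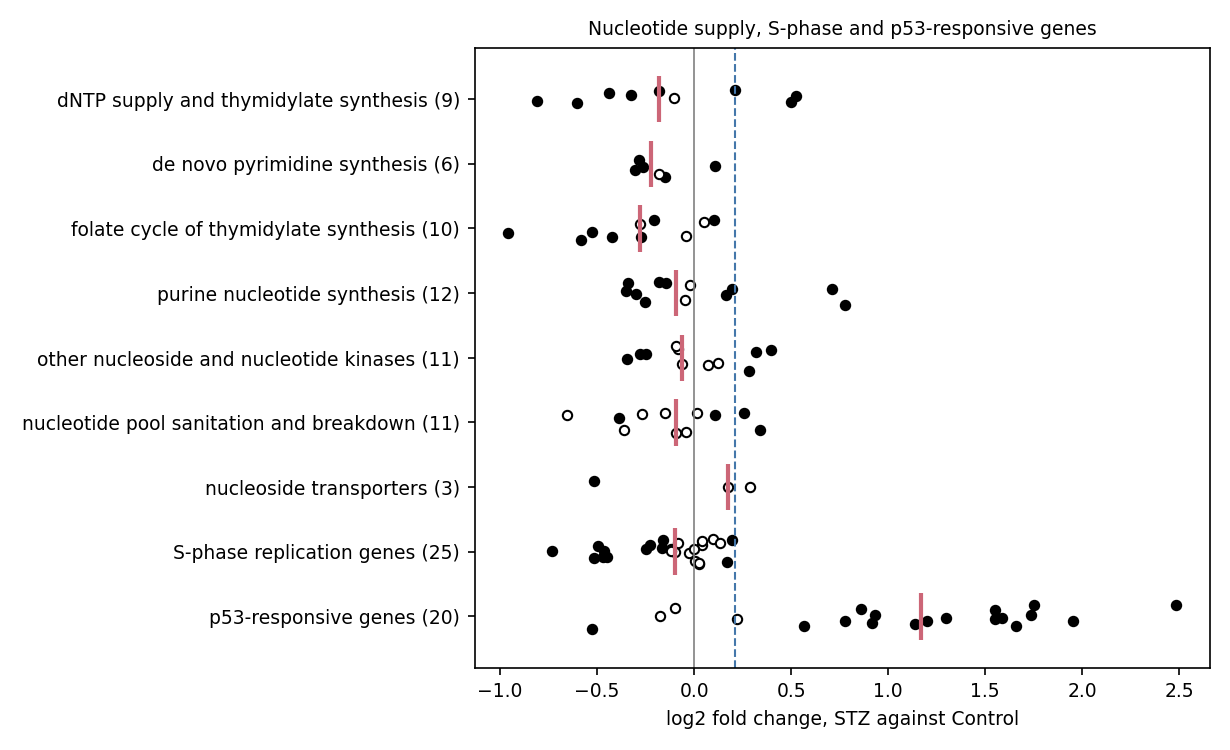
Points are single genes placed by their log2 fold change (STZ against Control) in rows of 9 lists, filled where the adjusted p was under 0.05, with the number of genes tested in parentheses and the list median as a red bar. Points are spread vertically only for legibility. The dashed line marks Rrm2b at 0.21, to the left of 17 of the 20 p53-responsive genes and to the right of all 25 S-phase genes, an order that 4 of 15 alternatives did not keep.

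Genes of the folate cycle, which feeds Tyms with methylene groups, were mostly lower. Of 10 genes tested, 1 was higher and 6 lower (all genes tested: 25.9% and 25.1%), with a median log2 fold change of -0.28. Mthfd1l, the mitochondrial formyltetrahydrofolate synthetase, fell from 38.6 ± 1.95 to 19.8 ± 1.74 CPM (SD, n = 3 each), a log2 fold change of -0.96. Shmt2, the mitochondrial serine hydroxymethyltransferase, fell from 153 to 102 CPM (-0.58). Mthfd1, the cytosolic enzyme with the synthetase activity, rose from 154 to 166 CPM (0.10), a call lost under 9 of 15 alternatives (edgeR adjusted p up to 0.16), among them without Control replicate 1 or 2 and without STZ replicate 1 or 2.

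Genes of de novo pyrimidine synthesis were mostly lower, with 1 of 6 higher and 4 lower (all genes tested: 25.9% and 25.1%). Cad, which starts the pathway, fell from 188 to 155 CPM and Cmpk1, the UMP/CMP kinase, from 128 to 104 CPM, while Ctps1, a CTP synthase, rose from 187 to 202 CPM. The call of Ctps1 was lost under 6 of 15 alternatives (edgeR adjusted p up to 0.13), the same 4 samples left out and 2 of the other scalings. Purine nucleotide genes split, with 4 of 12 higher and 6 lower, beside the same 25.9% and 25.1% of all genes tested. The phosphoribosyltransferases of purine salvage, Aprt and Hprt1, rose most, from 123 to 211 CPM (log2 fold change 0.78) and from 78.4 to 128 CPM (0.71). Ppat and Pfas, enzymes of the de novo route, fell with log2 fold changes of -0.30 and -0.35.

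The other nucleoside and nucleotide kinases included 3 higher and 3 lower of 11 tested, near the shares of all genes tested (25.9% and 25.1%). Uck2, a uridine-cytidine kinase, and Nme1, a nucleoside diphosphate kinase, rose with log2 fold changes of 0.32 and 0.28, and Adk, adenosine kinase, fell with a log2 fold change of -0.28. Among the mitochondrial partners of the cytosolic salvage kinases, both named after their values were seen, Tk2 had a log2 fold change of 0.39 (adjusted p = 0.0039) and Dguok one of 0.07 (adjusted p = 0.55, both by edgeR's QL test). Dtymk, which phosphorylates the dTMP made by Tyms and Tk1 and is also named after its value was seen, had 96.8 ± 8.60 CPM in Control and 90.7 ± 3.97 in STZ (SD, n = 3 each) and did not pass the test (adjusted p = 0.15, the same edgeR test), though it did without Control replicate 3 (0.0084) and with library size only (0.047).

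Of 11 genes of nucleotide pool sanitation and breakdown, 3 were higher and 1 lower (all genes tested: 25.9% and 25.1%). The lower genes numbered 2 without Control replicate 2, with the replicate block, thinning, no filter, upper quartile or library size only. With upper quartile or library size only, 2 genes were higher. Cda, cytidine deaminase, rose from 35.4 to 44.9 CPM and Itpa, which clears inosine triphosphates, from 111 to 133 CPM, while the nucleotidase gene Nt5c3a fell from 22.0 to 16.8 CPM. Of 3 nucleoside transporters tested, Slc29a2 fell from 16.5 to 11.6 CPM and 2 did not pass the test. Of these, 1 passed without STZ replicate 1, and 1 passed with the replicate block. Of the 78 genes tested in the folate, pyrimidine, purine, kinase, breakdown, transporter and S-phase lists, 0 passed both call thresholds in edgeR's QL test, and 0 did so at an unadjusted p under 0.05. Without STZ replicate 3, Mthfd1l passed both (log2 fold change -1.04).

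Likeness to a member was measured as Pearson's r of log2 CPM over the 6 samples, among 9889 named genes with a mean of at least 50 normalized counts. The genes most like Rrm2b were Zfp110, Brap and Zfp18, with r from 0.996 to 0.997, and those most like Tyms were Emc7, Erich1 and Gstp1, each with r of 0.999. With 2 groups of 3 samples such values are common, and 886 genes had an r over 0.9 with Rrm2b and 1784 with Tyms.

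**Figure D5:**
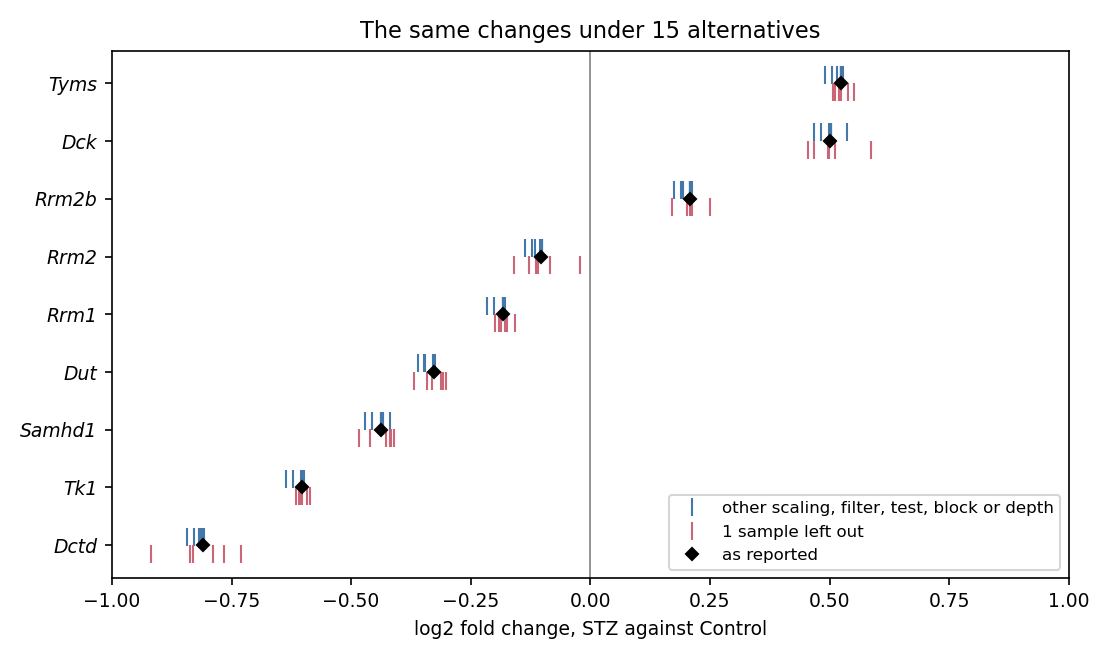
Log2 fold changes of the 9 genes (horizontal axis) are drawn as reported (diamonds), under 9 other scalings, filters, tests, the replicate block or thinning to the smallest total count (blue ticks) and with each of the 6 samples left out (red ticks). No tick crosses 0, and the values of Rrm2 come closest to it, at -0.02.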

How the data were processed

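RNA of NRK-52E cells treated with STZ (3 samples) or vehicle (3 samples) was sequenced as 100-bp single-end reads from stranded mRNA libraries. The authors mapped the reads to Rnor6 with STAR 2.7.10a, used featureCounts to count the reads of each gene that mapped uniquely, and deposited these raw counts with 1 column for each sample. The annotation release and the strand setting are not given in the sources used here. Reads that match a gene and a copy of it equally well are not counted this way, and the GRCr8 annotation names copies of 6 of the 9 members.

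From these counts, TMM scaling, filterByExpr at its defaults and the quasi-likelihood test were run over the whole table in edgeR 4.0.16 (R 4.3.3), with Benjamini-Hochberg adjustment. TMM factors were between 0.988 and 1.02. Both thresholds of the paper (adjusted p-value under 0.05, absolute log2 fold change over 1) were applied, together and with the first alone. The standard error of a log2 fold change is its size over the square root of F. DESeq2 1.42.0 and limma 3.58.1 served as alternatives, beside other scalings and filters, thinning, a replicate block and each sample left out. Total counts of 10430924 to 15191349 set the precision. The steps were tested on simulated counts with 1 spread shared by all genes and independent samples. Such counts check the code and cannot show whether the real samples were independent.

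The members, the lists and the rule for naming genes (all members, and up to 2 higher and 2 lower genes with the smallest p in each other list) were chosen with earlier results of these data known. The promoter motifs were chosen after the sequences had been seen. A gene that the rule names is not reported here.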

Additional observations from a re-analysis of the deposited data

How the results depend on the processing

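Over 15 alternatives, 3 members were always higher and 5 to 6 lower at an adjusted p under 0.05, and 0 passed both thresholds. Of 135 refits of single members, 128 left the direction and the call as reported, and the other 7 were all of Rrm2, which passed it in edgeR's QL test with the upper quartile (adjusted p = 0.022), library size only (0.0098), no filter (0.033), thinning (0.036), the replicate block (0.028) and without Control replicate 1 or 2. The cause was not tested. Of 34 other named genes, 27 kept their calls in every refit, Ctps1, Mthfd1, Cdh1, Vim and Col1a1 lost them in some, Dtymk gained one in 2, and the uncalled Dguok turned to -0.021 without STZ replicate 1 (-0.021 to 0.13 with 1 sample left out). Over all genes, the number past both thresholds, 400, fell to 249 when each sample had to hold at least 10 counts, where fewer genes are tested, rose to 585 with no filter, where more are, and was 403 to 462 with 1 sample left out. Of 240 list counts, 25 moved by more than 1.5 times, most of them counts of 1 or 2 genes. Under other scalings the median of all genes was between -0.04 and -0.01.

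The replicate numbers are common to both groups. Deviations of same-numbered samples from their group means had correlations of 0.047, -0.040 and 0.075 across 11870 genes. Such values cannot show whether same-numbered samples shared a culture or a batch, and the labels do not say. In the fit with the replicate block, 3 members were higher and 6 lower, and the Rrm2b to Rrm2 difference was 0.31. Thinning to the smallest total left every called member on its side of the threshold.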
